A study of Mus musculus with 4 samples.

Results

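Very tall regions are the called regions whose highest coverage signal was 8 or more steps of 1.9 on chromosomes 1 to 19, leaving out chromosomes 5, 10 and 15, which hold long segments of raised signal. There were 655 of them, out of 1270007 regions on the same 16 autosomes and 1578514 in the whole table. They were chosen by their height, so heights are given as a description, and widths and shapes, which come from the same coverage, are described without a test. The table came from CUT&RUN on primary mouse neural stem cells of wild-type genotype in which Six3 was overexpressed, with 3 libraries made against FLAG-tagged Six3 and 1 library made with control IgG, all 3 h after the change from growth-factor medium to neural differentiation medium. Per the sample titles the antibody target was a FLAG-tagged Six3, so these libraries concern the added protein and not the endogenous one. The number of independent cultures behind the libraries is not given in the labels. Repeat content and mappability of the regions could not be read here, so their part in any of these heights was not tested. No column belongs to a single library, so no value below has a replicate error, the depth is unknown, and FLAG signal was not set against IgG signal. Intervals beside shares are exact 95% binomial intervals over regions, which cover counting error only and take regions as independent, which neighbouring regions are not.

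Six3 is a homeobox transcription factor of the anterior neural plate, forebrain and eye. In CUT&RUN micrococcal nuclease joined to protein A/G is brought to an antibody on chromatin and releases the DNA around the bound protein, so a bound site gives overlapping fragments whose ends scatter on both sides. A stack of reads with nearly the same ends gives a narrow column of signal, and a longer stretch of raised coverage gives a broad one. Height alone does not separate these forms. For that reason each region is described here by its width, by the width of the interval that holds its highest signal, by its mean signal per bp, and by its equivalent width, the summed signal divided by the height. The equivalent width is the width that a flat block of the same height and the same summed signal would have. Nearly all heights were whole multiples of either 1.9 or 0.48 in the authors' coverage units, which gives a 1.9-step set and a 0.48-step set. Heights are given below in steps of 1.9, and mean signals per bp in the authors' units. Of the 655 very tall regions, 653 were in the 1.9-step set and 2 in neither. The comparison below is with the 760126 regions of the 1.9-step set under 8 steps on the same chromosomes, called the lower regions. No height of the 0.48-step set reached the same signal. The sources used here do not say whether the signals behind these sets were scaled alike, so heights of one set are not compared with those of the other.

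Few very tall regions touched an annotated promoter, and in 3 of them the interval of highest signal lay inside it. The promoter windows are 300 bp long, 250 bases before to 50 after a RefSeq start, and were held for all but 1 of the 16 chromosomes. Of the 626 very tall regions on those chromosomes, 12 overlapped such a window (1.92%, 0.994 to 3.32%), against 1.11% of lower regions, a share within that interval. The 3 windows that hold the highest signal are shown, from RefSeq on GRCm38.p6, all on the plus strand and 5′ to 3′, with the bases of highest signal in capitals. They belong to Gbp3, an interferon-inducible guanylate-binding protein gene (chr3:142559794-142560093), Adgrg1, an adhesion G-protein-coupled receptor gene of neural progenitors (chr8:94984149-94984448), and the long noncoding RNA gene LOC115490388 (chr6:3182866-3183165).
Gbp3: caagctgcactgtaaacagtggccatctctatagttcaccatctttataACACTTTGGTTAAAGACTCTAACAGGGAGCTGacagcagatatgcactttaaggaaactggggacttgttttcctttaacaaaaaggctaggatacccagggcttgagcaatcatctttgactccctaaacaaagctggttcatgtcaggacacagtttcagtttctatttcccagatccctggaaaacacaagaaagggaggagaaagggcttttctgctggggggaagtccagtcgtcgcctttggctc
Adgrg1: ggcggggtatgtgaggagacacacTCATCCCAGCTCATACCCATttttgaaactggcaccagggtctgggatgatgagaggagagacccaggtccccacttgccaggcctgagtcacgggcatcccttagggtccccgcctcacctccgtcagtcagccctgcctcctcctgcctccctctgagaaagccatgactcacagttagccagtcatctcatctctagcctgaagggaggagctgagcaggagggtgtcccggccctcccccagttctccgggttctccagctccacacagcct
LOC115490388: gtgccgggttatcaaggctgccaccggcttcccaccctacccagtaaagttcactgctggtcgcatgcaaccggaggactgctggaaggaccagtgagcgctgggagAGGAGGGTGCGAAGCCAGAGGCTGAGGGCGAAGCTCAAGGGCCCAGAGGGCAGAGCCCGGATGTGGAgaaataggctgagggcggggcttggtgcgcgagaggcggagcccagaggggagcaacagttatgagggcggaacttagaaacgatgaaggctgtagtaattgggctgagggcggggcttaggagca
At Gbp3 the region was 858 bp wide with a height of 9 steps, and its 32 bp of highest signal lay at positions -201 to -170 from the start. At Adgrg1 a region 720 bp wide had a height of 8 steps, with 20 bp of highest signal at -226 to -207 from the start. At LOC115490388 a region 1584 bp wide had a height of 9 steps, with 67 bp of highest signal at -143 to -77 from the start. In all 3 the highest signal was a short stretch upstream of the start, within a region several times wider. The letters ATTA, the core that many homeodomain proteins bind, were searched on both strands, where the other strand reads TAAT. They occurred 0 times in the Gbp3 and Adgrg1 windows and 1 time in that of LOC115490388, while 58.2% of 26764 promoter windows of the same length held them. TGATAC, a core described for Six-family proteins, occurred 0 times in the 3 windows and in 5.52% of all windows. These counts say only which letters the windows hold. The other promoter overlaps were at Hjurp, Ghitm, Tmem267, Zfp981, Nqo1, Ubash3b and Zfp335 and at noncoding genes, with the interval of highest signal outside each window.

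Most very tall regions had an equivalent width like that of the lower regions, and a smaller number were narrow columns. At 8 steps, the height just inside the threshold, there were 395 regions whose median width was 622 bp and whose equivalent width had a median of 259.6 bp. At 7 steps, just outside, there were 1737 with medians of 606 bp in width and 262 bp in equivalent width. The lowest very tall regions thus continued the shape of the regions beneath them. Median equivalent width stayed between 253 and 294.5 bp from 2 to 7 steps. It was 268 bp at 9 steps and 274.6 bp at 10 steps, then 211.5 bp at 11 steps and 115 bp at 12 steps, and it was at most 134 bp at every height from 12 to 20 steps.

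The regions were therefore split, after seeing these values, into 546 with a height of 8 to 11 steps, 84 with 12 to 23 steps and 25 with 25 steps or more. Median equivalent widths were 259 bp (quartiles 199 and 348), 111 bp (58.7 and 158) and 79.6 bp (55.9 and 88.2), against 274 bp (230.0 and 343.5) in the lower regions. An equivalent width of 100 bp or less was found in 30 of the 546, 35 of the 84 and 19 of the 25, against 0.0142% of lower regions. That contrast is limited by how equivalent width is defined and by how regions were called. Height is its divisor, so at a given summed signal a taller region has a smaller equivalent width. Median summed signals were 4050 at 8 to 11 steps, 3126 at 12 to 23 and 5639 at 25 or more, against 1377.5 in lower regions. The lowest summed signal of any 1.9-step region was 874, so a region of 4 steps or fewer cannot have an equivalent width under 115 bp, and at 5 steps the limit is 92 bp. It was 76.7 bp at 6 steps, 65.7 bp at 7 and 41.8 bp at 11. The range open under 100 bp therefore still widened with height. The share of columns of 100 bp or less was 0.188% at 6 steps, 0.461% at 7, 3.04% at 8, 5.62% at 9, 15% at 10 and 31.8% at 11. That limit shapes part of this rise.

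Narrow columns fell in number less steeply with height than wider regions did. Regions with an equivalent width over 100 bp numbered 7976 at 6 steps, 1729 at 7, 383 at 8, 84 at 9 and 34 at 10. Columns of 100 bp or less numbered 15, 8, 12, 5 and 6 at the same heights, and 85 at 5 steps, where the limit of 92 bp left only part of the range open to them. That limit was 76.7 bp at 6 steps and 46 bp at 10 steps. The class thus admitted more summed signals as height rose, and part of the difference was built in. At 12, 13 and 14 steps there were 4, 6 and 6 narrow columns, beside 9, 14 and 7 wider regions, and further ones occurred up to 83 steps.

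**Figure D1:**
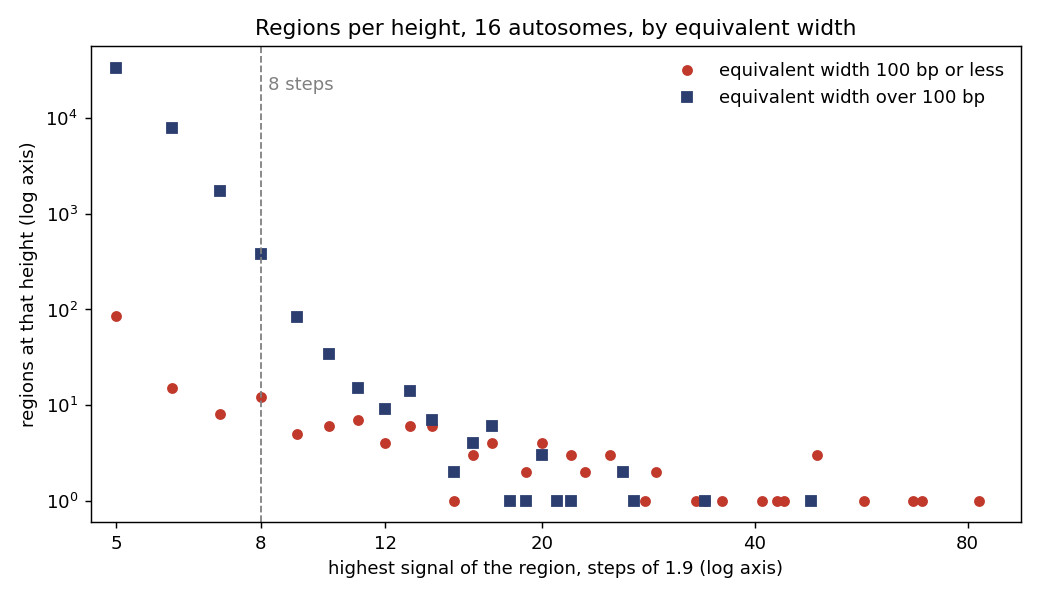
Number of 1.9-step regions at each height on 16 autosomes, with the region near Rorb at 48 steps, on log axes, divided by equivalent width; the tallest region of the table lies beyond the axis. Wider regions number 1729 at 7 steps and 34 at 10 steps, while narrow columns number 8 and 6 at those heights. The class of narrow columns admits more summed signals at greater heights.

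**Figure D2:**
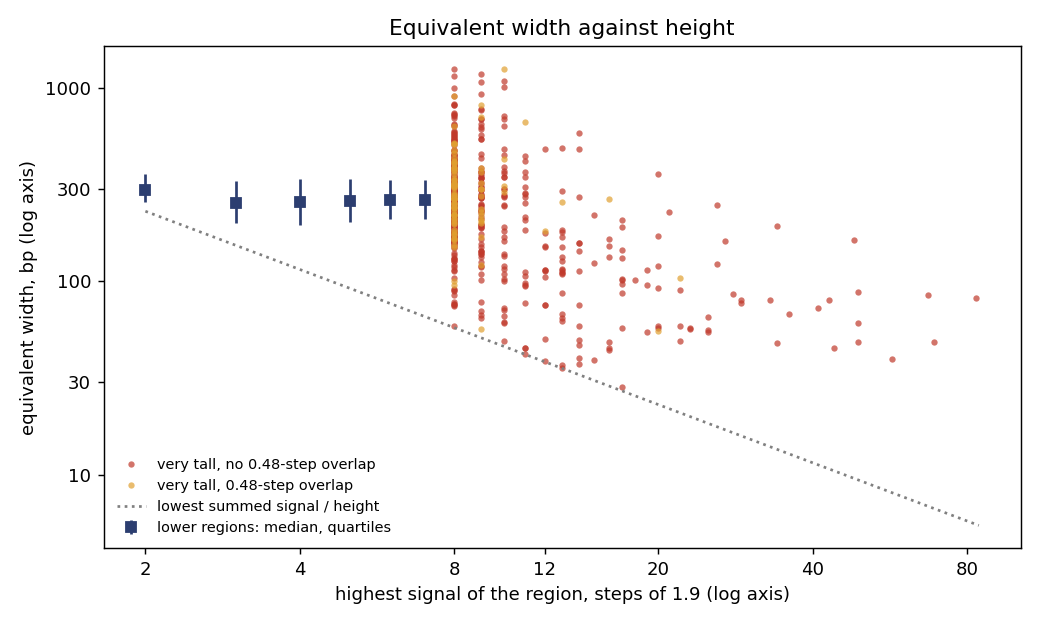
Equivalent width in bp against highest signal, on log axes: each point is a very tall region, squares with bars are the median and quartiles of lower regions, and the dotted line is the lowest summed signal, 874, divided by the height. The tallest region of the table is not drawn. From 12 steps upwards most points lie under the 253 to 294.5 bp medians of the lower regions.

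By full width, 47 very tall regions were 200 bp wide or less (7.18%, 5.32 to 9.43%), against 0.75% of lower regions, and 114 were 1000 bp wide or more (17.4%, 14.6 to 20.5%), against 3.52%. At 7 steps, just outside the threshold, 0.576% were narrow and 15.1% broad, so the share of broad regions was already within the interval of the very tall ones. The remaining 494 lay between. Narrow and broad forms sat at different heights. Of the 546 regions of 8 to 11 steps, 18 were narrow and 109 broad, while of the 109 of 12 steps or more, 29 were narrow and 5 broad. Narrow members had a median height of 14 steps, a median width of 83 bp and an equivalent width of 57.0 bp. Broad members had a median height of 8 steps, a median width of 1344.5 bp and an equivalent width of 479 bp.

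Full width and equivalent width did not pick the same regions. Among the 84 members with an equivalent width of 100 bp or less, 42 were wider than 200 bp, up to 760 bp, so that a column stood inside a region of ordinary width. The mean signal was a median of 0.326 of the height in these 84, against 0.412 in the other 571 very tall regions. Flat blocks were rare among the members. A mean of at least 0.8 of the height occurred in 10 members (1.53%, 0.734 to 2.79%), against 6.87% of lower regions, and 8 of the 10 were 200 bp wide or less. At 7 steps they were rarer still, at 3 of 1737 regions (0.173%). The median of this ratio fell steadily with height in the lower regions, being 0.673 at 2 steps, 0.524 at 4 and 0.434 at 7.

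The interval of highest signal was short in nearly all members. Its median width was 27 bp, with 5.40 and 84.6 bp as the 10th and 90th percentiles, against 107 bp in the lower regions, and it was 31 bp already at 7 steps. It had a median of 29 bp from 8 to 11 steps, 26.5 bp from 12 to 23 steps and 19 bp at 25 steps or more. Narrow members had a median of 27 bp and broad ones of 31.5 bp, so short tops were common to regions of either form. The longest top belonged to a region of 2324 bp in Hjurp on chromosome 1 (88265317 to 88267640), in which an interval of 833 bp held the highest signal of 10 steps. The next were 498 bp in a region 62.4 kb from Ccnh and 454 bp in one beside Tnfsf12. Mean signal per bp was a median of 6.67 in very tall regions (6.50 to 6.94, 95% interval of the median), 5.77 in regions of 7 steps and 3.12 in all lower regions. It was a median of 15.3 in the narrow members and 5.63 in the broad ones.

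The tallest members combined columns standing alone with columns inside wider regions. The tallest region of the 1.9-step set on these chromosomes, on chromosome 6 (132463227 to 132463807), had a height of 83 steps, a width of 581 bp and a mean signal of 22.2 per bp. It lay 99.4 kb from Gm8882, and its 15 bp of highest signal began 528 bp after the first base of the region. A region in Prkdc, a DNA repair kinase gene (chromosome 16, 15642673 to 15643138), had a height of 69 steps over 466 bp but a mean of 13.7 per bp, an equivalent width of 48.5 bp. One in Dpp9, a dipeptidyl peptidase gene (chromosome 17, 56199553 to 56200094), had 67 steps over 542 bp and an equivalent width of 85.2 bp. In these 3 the mean was 0.104 to 0.157 of the height.

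Columns standing nearly alone were found in Ybx3, a Y-box nucleic acid-binding protein gene, Zfp949, a zinc finger gene, and Plxdc2, a transmembrane protein gene. The Ybx3 region (chromosome 6, 131377540 to 131377608) had a height of 57 steps and a width of 69 bp. The Zfp949 region (chromosome 9, 88553232 to 88553311) had 49 steps and 80 bp, and the Plxdc2 region (chromosome 2, 16683070 to 16683143) had 34 steps and 74 bp. Their means were 0.575, 0.764 and 0.647 of the height. A region 79 bp wide on chromosome 6 (10186382 to 10186460), 937 kb from Nxph1, came closer to a flat block, at 0.825 of its height of 25 steps. Aak1, a kinase gene of clathrin-mediated endocytosis, held one 109 bp wide with a height of 22 steps and a mean of 0.822 of it.

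Other tall columns lay inside ordinary widths. At Pla2r1, a phospholipase A2 receptor gene, a region of 49 steps was 552 bp wide with an equivalent width of 88.2 bp, 14.6 kb from the gene. The region nearest to Bambi, a pseudoreceptor gene of TGF-beta signalling, reached 49 steps over 581 bp with a mean of 7.77 per bp, the lowest mean-to-height ratio of all members at 0.0835. The one nearest to Unc5d, a netrin receptor gene, reached 44 steps over 476 bp with an equivalent width of 45.3 bp, and the one nearest to Sulf1, a heparan sulphate sulphatase gene, 43 steps over 576 bp with 79.7 bp. Plxdc1, a relative of Plxdc2, held a region of 760 bp with a height of 29 steps and an equivalent width of 76.7 bp. The region of 91.2 in the authors' units nearest to Rorb, a nuclear receptor gene, was broader in form, with 163 bp, and its height was a whole multiple of both steps, so it was placed in neither set.

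Of the 30 tallest members, 23 had an equivalent width of 100 bp or less, 8 were 200 bp wide or less, 11 had their midpoint inside a protein-coding gene and 10 lay 100 kb or more from one. Besides those described, their nearest genes were Olfr854 and Olfr161, odorant receptor genes, Ankle1, an endonuclease gene, Bcl11a, a zinc finger transcription factor gene, Myl12b, a myosin light chain gene, Mc2r, the corticotropin receptor gene, Pth2r, a parathyroid hormone receptor gene, Aldh7a1, an aldehyde dehydrogenase gene, Pex2, a peroxisome assembly gene, and Slc25a54, AW554918, Samd9l, Fam227b, Tyrp1 and Nkain3. The region nearest to Bcl11a was 927 kb away, and that nearest to Pex2 471 kb away, so the gene names only locate these regions.

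The 10 narrowest members were 48 to 60 bp wide with heights of 12 to 17 steps. Their nearest protein-coding genes were Bambi, Shisa2, Rasgrf1, Hapln1, Gm33989, Bzw2, Cep295, Ntrk2, Gdf6 and Stx12. Among these, the one nearest to Ntrk2, the receptor gene for brain-derived neurotrophic factor, was 58 bp wide and lay 38.0 kb from the gene with a height of 13 steps. It had a summed signal of 874, the lowest of the whole set. The region nearest to Gdf6, a BMP-family ligand gene 97.0 kb away, was 59 bp wide with a height of 17 steps and the flattest of all members, with a mean of 0.967 of the height.

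The 10 widest members were 2366 to 4017 bp wide. Apart from the tallest region of the table, they had heights of 8 to 11 steps and lay nearest to Zfp982 (3822 bp), Zfp981, Gm32719, Muc4, Hjurp, Kctd14, Zfp992, the vomeronasal receptor gene Vmn1r2 and 9530057J20Rik.

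The tallest region of the table had none of these forms. It spanned 4017 bp on chromosome 14 (19415687 to 19419703), was the widest member, and had a mean signal of 2981 per bp with a height of 10841.2 in the authors' units. Its highest signal was at 1 bp and its equivalent width was 1105 bp. Its repeat content and mappability were not read. It had 0 regions of the 0.48-step set within 10 kb, and its neighbours in the 100 kb on either side carried 0.391 times the median 1.9-step signal around lower regions. It belonged to neither set, and without it and the region near Rorb the median width was also 582 bp.

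Overlap with the 0.48-step set is a measure that the height did not choose, and it was lower at 12 steps and higher than at 8 to 11 steps. Of the 655 very tall regions, 96 shared 1 bp or more with a 0.48-step region (14.7%, 12.04 to 17.6%), against 17.9% of lower regions. A wide region meets more 0.48-step regions, so shares were also compared within 5 classes of width. Lower regions weighted to the classes of the very tall ones were overlapped in 20.6% of cases. For 8 to 11 steps the overlap was 91 of 546 (16.7%, 13.6 to 20.1%), against 21.5% in lower regions so weighted. For 12 steps and higher it was 5 of 109 (4.59%, 1.51 to 10.4%), against 16.1%. Both intervals exclude the weighted value, and the 2 intervals do not meet. The classes match widths only roughly. Up to 200 bp the members had a median width of 83 bp, while no lower region was under 105 bp. The 16.1% may therefore be too high for the narrowest members.

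By class of width, 22 of 112 members over 1000 bp wide were overlapped (19.6%, 12.7 to 28.2%), against 32.3% of lower regions. From 200 to 400 bp it was 7 of 114 (6.14%, 2.50 to 12.2%), against 14.0%. In the other 3 classes the interval of the very tall regions included the share of the lower ones, with 4.26% against 10.9% up to 200 bp, 15.8% against 18.3% from 400 to 700 bp and 19.4% against 24.3% from 700 to 1000 bp. For 12 steps and higher the interval included the share of the lower regions in each class of width taken alone. At 25 steps and higher 0 of 25 were overlapped. Among the 84 columns of 100 bp or less, 4 were overlapped (4.76%, 1.31 to 11.7%), against 92 of the other 571 (16.1%, 13.2 to 19.4%).

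**Figure D3:**
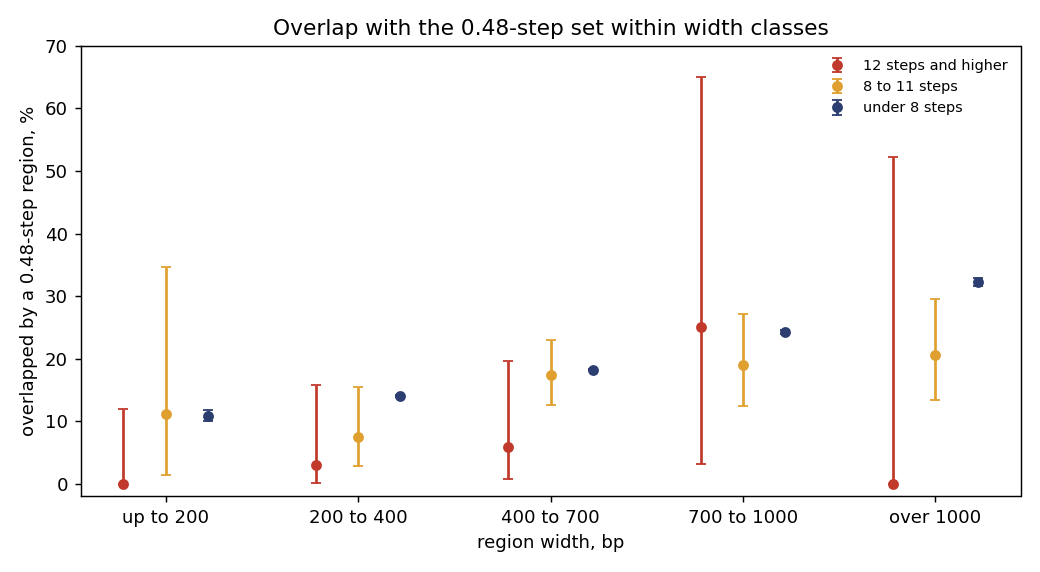
Share of regions overlapped by a 0.48-step region in 5 classes of width, for very tall regions in 2 ranges of height and for lower regions; bars are exact 95% binomial intervals. At 12 steps and higher 1 of 33 regions between 200 and 400 bp was overlapped (0.0767 to 15.8%), against 14.0% of lower regions. In each class the interval at these heights included the share of lower regions.

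The 0.48-step set was not sparse around the members in general. Its median density in the 10 kb on either side was 250 regions per Mb in both groups, and its mean was 242 per Mb around very tall regions, against 257 around lower regions. Within 500 bp of a region of 12 steps or more lay a 0.48-step region in 23 of 109 cases (21.1%, 13.9 to 29.96%), against 37.4% of lower regions. In 14 members no such region overlapped or lay within 10 kb (2.14%, 1.17 to 3.56%), against 1.04% of regions at 7 steps and 0.461% of all lower regions, and 4 of the 14 lay around Mroh2a and Hjurp.

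Where the sets overlapped, the 0.48-step region lay beside the top more often than on it, as it also did at 7 steps. In 29 of the 96 overlapped members it covered at least part of the interval of highest signal (30.2%, 21.3 to 40.4%), against 30.03% at 7 steps and 54.3% in all lower regions, whose tops were longer. The highest 0.48-step signal met was 0.96 in 61 of the 96 (63.5%, 53.1 to 73.1%), against 71.7% at 7 steps and 71.8% in all lower regions. It was in none over 1.92, a height that 99.3% of the 0.48-step set did not exceed. None of the 5 overlaps at 12 steps and higher, at Nkain3, Prxl2b, Dlgap2, Sfi1 and Slc8a3, did so, and at Nkain3 the overlap was 6 bp. At Muc4, a mucin gene, a region of 2942 bp with a height of 8 steps met a 0.48-step region of 501 bp and a highest signal of 1.92 that covered the top. At Bicd2, a dynein adaptor gene, a 0.48-step region of 230 bp covered a top of 9 steps, and at Ntm, a neuronal adhesion gene, one of 257 bp covered part of a top of 9 steps. Near Pax2, an eye and kidney paired-box gene, a region of 1551 bp with a height of 10 steps held a 0.48-step region of 466 bp beside its top, 7.87 kb from the gene.

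Clustering was limited to a few loci. With gaps under 10 kb, 42 members lay in 16 clusters (6.41%, 4.66 to 8.57%), against 3.51% for the more numerous regions of 7 steps. The other 613 stood alone. The largest cluster had 6 members over 25.03 kb inside Sfi1, a centrin-binding spindle gene, near the start of the assembled sequence of chromosome 11 (3154477 to 3179508). Their heights were 11, 10, 10, 17, 13 and 8 steps, their widths 433 to 996 bp and their equivalent widths 177 to 346 bp, and 1 was overlapped by a 0.48-step region. The second had 5 members over 25.6 kb across Mroh2a and Hjurp, the gene of a chaperone of centromeric histone H3 (chromosome 1, 88253251 to 88278839). These were 1225 to 2926 bp wide with heights of 8 to 10 steps, and the whole span met 1 region of the 0.48-step set.

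The other 2 clusters of 3 or more were shorter and had smaller equivalent widths. Between genes on chromosome 4 (80002391 to 80005200), 829 to 831 kb from Tyrp1, a melanin synthesis gene, 4 members lay within 2.81 kb, with heights of 13, 8, 10 and 18 steps and equivalent widths of 72.9 to 170 bp. Far from genes on chromosome 9 (93174100 to 93175790), 566 to 567 kb from Plod2, a collagen lysyl hydroxylase gene, 3 members lay within 1.69 kb, with heights of 13, 12 and 20 steps and equivalent widths of 62.4 to 105 bp. The spans of these clusters met 0 regions of the 0.48-step set. Signal in the surrounding 100 kb was 0.818 to 0.840 and 0.955 to 0.962 times the median around lower regions, so neither cluster lay in a long raised stretch.

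**Figure D4:**
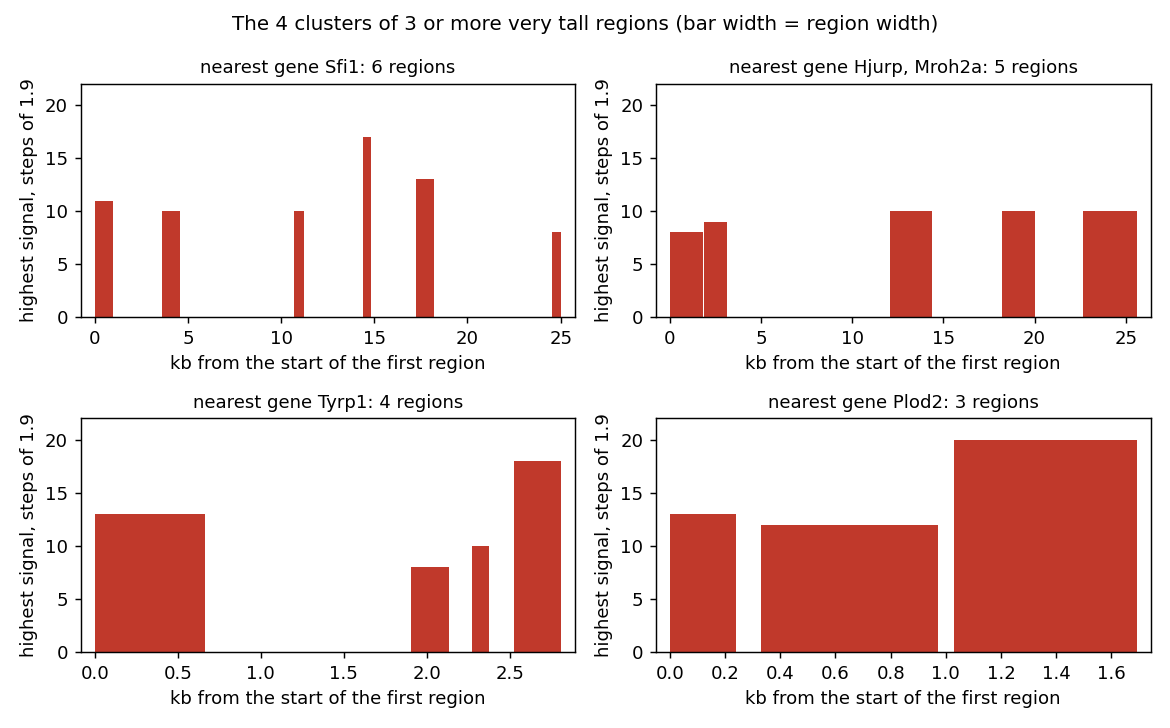
Highest signal of the members of each cluster of 3 or more against their distance in kb from the first; the width of a bar is the width of the region. The Sfi1 and Hjurp clusters span 25.03 and 25.6 kb, those with Tyrp1 and Plod2 as the nearest genes 2.81 and 1.69 kb.

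A zinc finger gene array on chromosome 4 held the densest group of members. In a 3 Mb window, chosen after its values were seen, lay 21 of the 68 members of the chromosome, nearest to Zfp600, Zfp978, Zfp980, Zfp981, Zfp982, Zfp984, Zfp985, Zfp992 and Gm42346. The first began at 145446323 and the last ended at 147806786. Zfp genes encode zinc finger proteins and many of them form arrays of related genes. The members there were mostly broad, with a median width of 1274 bp (475 to 3822), heights up to 14 steps, and 1 overlap with the 0.48-step set. The 0.48-step set had 143 regions per Mb in this window, against 251.4 over the 16 autosomes, and the 1.9-step set 312, against 376 per Mb. The signal of the neighbouring 1.9-step regions within 100 kb was a median of 2.08 times that around lower regions, and reached 3.10 at Zfp982. Those neighbours include other members of the window, so part of this signal is that of regions chosen for their height.

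Raised surroundings were uncommon elsewhere. Signal within 100 kb was at least 2 times the median around 21 members (3.21%, 2.00 to 4.86%), against 1.27% of regions at 7 steps and 0.0814% of all lower regions. Of these, 14 lay in the zinc finger window, 3 near the chitinase-family genes Chia1 and Chil4 on chromosome 3, 2 near Gm5373 on chromosome 8, and 1 each near Prl2c3 and Trappc13 on chromosome 13. Without the window the share was 1.10%, against 0.0539%. Neighbouring very tall regions were counted in this signal, and shares without them were not calculated. Where members lie close together, these shares are therefore partly set by the choice of tall regions. All 21 had a height of 8 to 11 steps, as 83.4% of members did, and 12 of them were broad. Median surroundings differed little, at 1.04 times the median around lower regions for members of 8 to 11 steps, 0.987 times for 12 to 23 steps and 0.936 times for 25 steps or more.

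Per chromosome, very tall regions numbered 0.223 per Mb on chromosome 19 to 0.450 on chromosome 6, with 0.444 on chromosome 4. The 1.9-step set as a whole ran from 348 per Mb on chromosome 14 to 403 on chromosome 13. The 84 columns of 100 bp or less lay on 15 of the 16 chromosomes, with 10 on chromosome 2, 9 on chromosome 9 and 8 on chromosome 18. The first assembled Mb of the chromosomes, from 3 to 4 Mb, held 16 members (2.44%, 1.40 to 3.94%), against 0.661% of lower regions, and 6 of these were the Sfi1 cluster. Without members in clusters it was 8 of 613 (1.31%, 0.565 to 2.56%), an interval that includes the share of the lower regions.

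**Figure D5:**
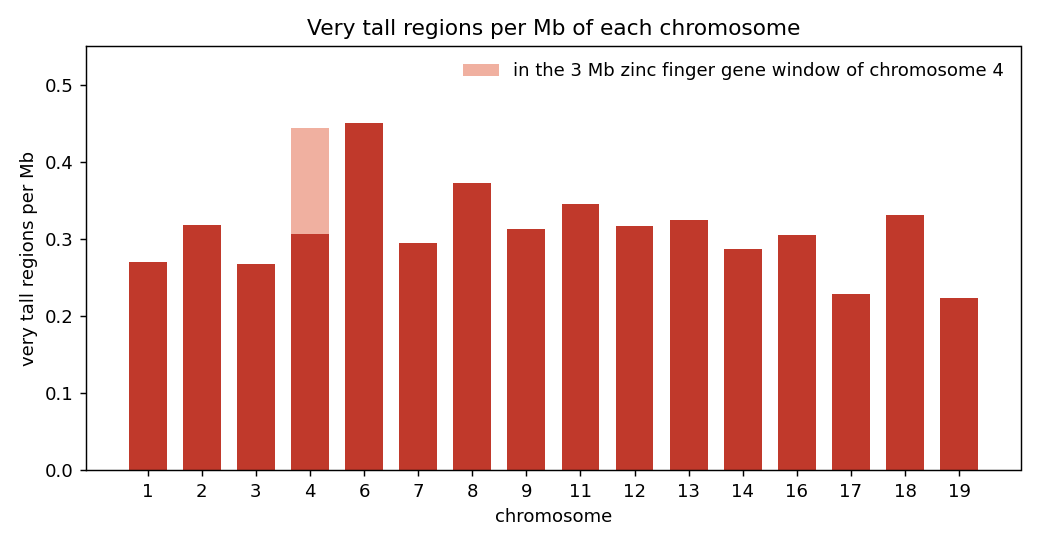
Very tall regions per Mb on each of the 16 autosomes, with the 21 members in the 3 Mb zinc finger gene window of chromosome 4 drawn lighter. Chromosomes 6 and 4 stand highest, with 0.450 and 0.444 per Mb.

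Very tall regions lay in genes and at gene ends at about the share of lower regions. Outside genes the median distance was shorter at 8 to 11 and at 12 to 23 steps, as it was just under the threshold. The midpoint was inside a gene in 265 of 655 (40.5%, 36.7 to 44.3%), against 42.8% of lower regions. Within 1 kb of a gene end, meaning either its start or its finish, lay 26 (3.97%, 2.61 to 5.76%), against 4.17%. Both intervals include the value of the lower regions. Outside genes the median distance was 39.96 kb in very tall regions, against 74.5 kb in lower regions, and 126 members were 100 kb or more away (19.2%, 16.3 to 22.5%), against 25.3%. At 7 steps these values were already 53.8 kb and 21.8%. Outside genes the median was 37.9 kb at 8 to 11 steps and 41.1 kb at 12 to 23 steps, but 116 kb for the 17 regions of 25 steps or more, and 36% of all 25 at that height lay 100 kb or more away (17.97 to 57.5%). Of all 84 at 12 to 23 steps 25% lay that far away (16.2 to 35.6%). By width, median distances outside genes were 22.1 kb for 65 broad members and 123 kb for 27 narrow ones. Of all 47 narrow members 14 lay 100 kb or more away (29.8%, 17.3 to 44.9%), an interval that includes the 25.3% of lower regions. Of the 114 broad members 14 did (12.3%, 6.88 to 19.7%).

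Of the 26 members at gene ends, 0 were 200 bp wide or less (0 to 13.2%), an interval that includes the 7.18% of all members. By height, 25 had 8 to 11 steps, as 83.4% of all members did. The other was a region of 12 steps and 421 bp at Gm51572 on chromosome 8. At Hjurp the region of 10 steps was 2926 bp wide. Ghitm, a mitochondrial inner membrane protein gene, had a region of 10 steps and 531 bp at its start. Nqo1, a quinone reductase gene, had one of 8 steps and 1276 bp. Regions of 8 steps lay at Tomm20, a mitochondrial import receptor gene (674 bp), Adipor2, an adiponectin receptor gene (366 bp), Serpini1, a serine protease inhibitor gene of neurons (372 bp), Impa1, an inositol monophosphatase gene (376 bp), and Selenon, a selenoprotein gene (594 bp).

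Overlaps with annotated pseudogenes lay partly in the chromosome 4 window. A pseudogene was overlapped by 22 members (3.36%, 2.12 to 5.04%), against 1.04% at 7 steps, 1.16% of all lower regions and 1.22% of lower regions with similar widths. Of the 22, 13 were broad, and 8 of these lay in the window. A single pseudogene there, Vmn2r-ps16, accounted for 6 members. Without the chromosome 4 window 13 of 634 did so (2.05%, 1.10 to 3.48%), against 1.15%, and this interval includes the value of the lower regions. A miRNA gene was overlapped by 2 members (0.305%, 0.0370 to 1.10%), against 0.0264%. These were Mir6481 on chromosome 3, in a region of 9 steps and 324 bp, and Mir6236 on chromosome 9, in a region of 11 steps and 250 bp, with equivalent widths of 77.9 and 107 bp. The highest signal of the first (99199213 to 99199241) lay outside Mir6481 itself (99199344 to 99199453). For Mir6236 this was not examined.

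The gene lists were met at a low share. A very tall region lay inside or within 10 kb of 388 of 17619 protein-coding genes on these chromosomes, or 2.2%. Among Six-family and cofactor genes 1 of 13 had one, Eya3, an Eya cofactor gene, with a region of 8 steps and 644 bp inside it. The counts were 0 of 16 for the forebrain and eye patterning factors, 0 of 13 for the neural stem cell markers, 0 of 17 for the liver genes and 0 of 16 for the skeletal muscle genes. Lists of this size are too short to tell their share from 2.2%, since 0 of 16 allows up to 20.6%. By gene name, 16 of 352 Zfp genes had one (4.55%, 2.62 to 7.28%), Zfp600, Zfp978, Zfp981, Zfp982, Zfp984, Zfp985 and Zfp992 in the chromosome 4 window among them. Neighbouring genes there can lie within 10 kb of the same region, and the share without that window was not calculated. Of the odorant receptor genes 7 of 1027 had one (0.682%, 0.274 to 1.40%), of the vomeronasal receptor genes 5 of 335 (1.49%, 0.486 to 3.45%), of the Gm genes 11 of 799 (1.38%, 0.689 to 2.45%) and of the Rik genes 7 of 332 (2.11%, 0.852 to 4.30%).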

How the data were processed

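Per the labels, 3 libraries against FLAG-tagged Six3 and 1 with IgG were made. The submitters' processing notes name the mm10 build and, without versions, SEACR, Bowtie2 and deepTools. The deposited table has 6 columns. It holds the authors' coverage signal at the highest point of each region, the same signal summed over its bases (in signal times bp), and the interval of highest signal. No source used here gives the scaling factors, the SEACR mode, the use of IgG or how libraries were combined, and the depth per library is unknown.

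The height threshold was 15.2, or 8 steps, and the height just outside was 13.3, or 7 steps. A height was put in a step set when, divided by 1.9 or 0.48, it was within 0.001 of a whole number. A height that met this for both steps was put in neither set. Gene positions came from RefSeq GRCm38.p6, whose coordinates are those of mm10; it lists 17619 genes of the protein-coding class on the 16 autosomes. Overlap means 1 bp or more. Shares have exact Clopper-Pearson intervals, and medians have intervals from order statistics. No test was run, since no value belongs to a sample. Calculations were tested on simulated data. The members, the lists and the ranges of height were chosen with earlier results of these data known. Named genes are the nearest to the 30 tallest, 10 widest and 10 narrowest members, those of clusters of 3 or more, those at gene ends, those of the 30 tallest members overlapped by the 0.48-step set, and listed genes within 10 kb. Others (promoter, pseudogene, miRNA and raised-signal genes) were chosen after their values were seen. Alternatives covered the height threshold, width and shape limits, gaps, windows and overlap rules. Python 3.11.15, numpy 2.4.6, pandas 2.3.3, scipy 1.17.1 and matplotlib 3.10.9 were used.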

Additional observations from a re-analysis of the deposited data

Results flagged for a closer look

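Heights of 8 or more steps of 1.9 also occurred on sequences that the comparisons above do not use. On scaffolds that are unplaced or unlocalised in mm10, 7 of 886 regions reached that height (0.790%), on 6 of 35 scaffolds, with signals up to 36.1 in the authors' units. On chromosome Y 3 of 140 regions did (2.14%), also up to 36.1. On the 16 autosomes the share was 0.0516%, and on chromosome X it was 14 of 60162 (0.0233%). The level of the IgG library on these sequences was not analysed here.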

How the results depend on the processing

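Of 41 alternatives 23 moved a value and 18 did not. With a height threshold of 10 steps there were 171 regions, with a median width of 430 bp, 21.6% narrow, 10.5% broad, 3.51% flat, 10.5% in clusters and 5.85% overlapped by the 0.48-step set. With 7 steps there were 2392 regions, with 2.38% narrow, 0.543% flat and 18.4% overlapped. Here the cause is the construction, as each threshold takes other regions. On all autosomes 1469 regions reached 8 steps. Narrow up to 300 bp gave 14.0%, and flat from 0.7 or 0.9 of the height gave 3.21% or 0.458%. Gaps of 1 kb and 100 kb put 2.44% and 15.9% in clusters. Gene-end windows of 5 kb held 16.3% of very tall regions, against 14.3% of lower regions. An overlap of at least 50% of the narrower region gave 10.7%, against 13.1%, and a 0.48-step region within 500 bp gave 30.8%, against 37.4%. Counting only regions inside genes gave 247 genes. The pseudogene share without the chromosome 4 window, an alternative chosen after seeing the data, was 2.05%, and the share in the first assembled Mb without clustered members, also chosen then, was 1.31%. The equivalent width, the ranges of height and this window were also chosen after seeing the data. No paired analysis was possible because no column belongs to a single library. The absence of library values also means that no library could be left out. The lowest summed signal of 874 limits how narrow a low region can be, so the form of regions under 5 steps could not be compared with that of the tallest.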
